A study of Mus musculus with 20 samples.

Results

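The genes followed here in whole mouse trachea are 10 genes of T cells and natural killer (NK) cells: Cd3d, Cd3e, Cd3g, Cd4, Cd8a, Cd2, Gzma, Gzmb, Nkg7 and Ctsw, the gene for cathepsin W. They were found by name on a one-colour whole-genome expression array, on which these 10 genes had 15 of the 41174 probes. The arrays carried RNA from 20 tracheas of mice aged 4 months by the labels, in 4 groups of 5: uninjured wild-type (WT-control), uninjured Myd88KO (KO-control), and each genotype 3 days after 2% polidocanol, a detergent that strips the tracheal epithelium (WT-injury and KO-injury). The wild-type mice are labelled C57/Bl6 and the others as Myd88 KO, an inherited loss of the gene in every cell. Per the methods, the knockouts had been backcrossed to C57/Bl6JOlaHsd and were bred with each other, and the wild-type mice came from a separate colony, so that genotype and colony cannot be told apart. The methods give mice of both sexes and an age range wider than the labels, and the labels do not give the sex of a sample. No label says that tracheas were pooled, and p-values measure the spread between these samples.

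The antigen receptor of a T cell signals through the CD3 chains, encoded by Cd3d, Cd3e and Cd3g, and its co-receptors CD4 and CD8 mark helper and cytotoxic T cells. CD2 is an adhesion receptor of T and NK cells. Cytotoxic T cells and NK cells kill by releasing granules that hold granzymes, of which Gzma and Gzmb encode the most studied, and Nkg7 encodes a membrane protein of these granules. Ctsw encodes a cysteine protease of the papain family that is made mainly by cytotoxic T cells and NK cells. Myd88 is the adaptor through which most Toll-like receptors and the interleukin-1 receptor family reach NF-κB, and the airway wall normally holds few lymphocytes.

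The RefSeq promoter table used here matched 7 of the 10 genes, and 4 are shown because Cd3d, Cd3g and Cd3e are close neighbours on chromosome 9 whose levels followed each other to different degrees across these tracheas, and because Nkg7 differed most clearly after Ctsw between the uninjured genotypes. Each run is the 250 bases before the start of the gene in GRCm38.p6, from 5′ to 3′ on the strand of the gene. Capitals mark the letters TGTGGT (the core bound by RUNX factors), AGGAAG (by ETS factors) and CTTTGA (by TCF and LEF factors), on either strand and with no overlap between them.
Cd3g, chr9:44980432-44980681, minus strand: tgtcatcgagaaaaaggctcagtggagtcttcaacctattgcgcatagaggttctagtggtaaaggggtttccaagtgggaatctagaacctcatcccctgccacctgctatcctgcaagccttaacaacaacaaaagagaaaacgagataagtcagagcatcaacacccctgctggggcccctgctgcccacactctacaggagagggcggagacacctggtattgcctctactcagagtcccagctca
Cd3d, chr9:44981536-44981785, plus strand: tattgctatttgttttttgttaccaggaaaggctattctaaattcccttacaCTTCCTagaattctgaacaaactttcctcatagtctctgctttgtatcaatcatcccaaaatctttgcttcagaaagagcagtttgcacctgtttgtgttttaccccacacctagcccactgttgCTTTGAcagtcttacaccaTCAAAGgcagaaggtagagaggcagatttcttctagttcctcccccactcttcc
Cd3e, chr9:45009612-45009861, minus strand: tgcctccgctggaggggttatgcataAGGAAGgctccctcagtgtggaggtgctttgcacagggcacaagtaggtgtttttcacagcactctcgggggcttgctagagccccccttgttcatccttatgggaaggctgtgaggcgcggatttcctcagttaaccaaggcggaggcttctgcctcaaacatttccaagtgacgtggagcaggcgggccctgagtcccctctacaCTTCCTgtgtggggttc
Nkg7, chr7:43436888-43437137, plus strand: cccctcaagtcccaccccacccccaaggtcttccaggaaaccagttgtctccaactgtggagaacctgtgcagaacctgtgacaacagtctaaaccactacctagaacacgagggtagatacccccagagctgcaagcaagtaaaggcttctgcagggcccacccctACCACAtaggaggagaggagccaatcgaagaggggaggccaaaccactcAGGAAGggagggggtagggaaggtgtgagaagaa

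The Cd3g and Cd3d genes are transcribed away from each other, and their windows lie close together. The Cd3d window held 1 ETS and 2 TCF/LEF matches, that of Cd3e held 2 ETS matches, that of Nkg7 held 1 RUNX and 1 ETS match, and that of Cd3g held 0. Among all 32851 promoters of the table, 14.0% held the RUNX letters, 29.5% the ETS letters and 13.8% the TCF/LEF letters. Of the 7 member promoters, 3 held the RUNX letters (those of Gzma and Gzmb beside Nkg7), 3 the ETS letters and 1 the TCF/LEF letters. A match is a description of the sequence alone.

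Levels are given as log2 signal relative to the 75th percentile of the same array, so that 0 is the level of a fairly bright probe and 1 unit is a doubling. The scanner software marks signals it takes to be well above background, and a probe needed that mark on 10 or more of the 20 arrays to be tested, which left 26063 of the 41174 probes. Of the 15 member probes 11 passed, at least 1 for every gene. The other 4 were a second probe of Cd3e and of Cd4, each well above background on 0 arrays, and 2 further probes of Cd8a, well above background on 1 and 8 arrays. Between 57.5% and 67.8% of spots were well above background on an array, and the lowest level that counted as such lay between -5.42 and -4.36. The array named KO-injury-5 had the lowest of these percentages. The Myd88 probe, whose place relative to the deleted part is not given in the sources used here, did not separate the uninjured genotypes (1.94 to 2.28 in WT-control and 1.60 to 2.04 in KO-control). After injury it was lower in every Myd88KO array (1.54 to 2.09 against 2.36 to 2.80; limma adjusted p = 0.00824). Epithelial and cartilage markers of trachea were well above background, among them Krt5 (mean 6.09 in WT-control) and Col2a1 (3.47).

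Ctsw was higher in uninjured Myd88KO trachea, and it was the 1 member called in any comparison. Its single probe (A_52_P264924, chromosome 19, 5360177 to 5360236 in the array files, whose build is not given in the sources used here) was well above background on all 20 arrays. On the uninjured wild-type arrays 1 to 5 its log2 level was -4.09, -4.12, -4.44, -4.03 and -3.72. On the uninjured Myd88KO arrays 1 to 5 it was -3.08, -3.38, -3.04, -3.30 and -3.44. All 5 knockout arrays lay above all 5 wild-type arrays, and the spread within each group was small (SD 0.26 and 0.18).

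The Ctsw difference was 0.83 ± 0.14 (SE) on the log2 scale, or 1.78-fold, with a 95% interval from 0.53 to 1.13 (limma, adjusted p = 0.00424 over all probes tested). In bulk tissue, a change in the number of cells of a type and a change in the RNA per cell cannot be told apart. Between arrays of the same slide the difference was positive on 5 of 5 slides, from 0.28 to 1.40, and it averaged 0.96 over the slides of the first scan day and 0.64 over those of the second. The study picked Ctsw on these same samples as different between uninjured genotypes, so the difference is not independent evidence. It was dim, and with the normexp background correction, which adds 50 to every signal, the difference was 0.39 with an adjusted p of 0.407. The call was lost in 7 of the 20 fits that each left out 1 array, with adjusted p at most 0.0196, and the difference stayed between 0.74 and 0.92 in all 20.

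**Figure D1:**
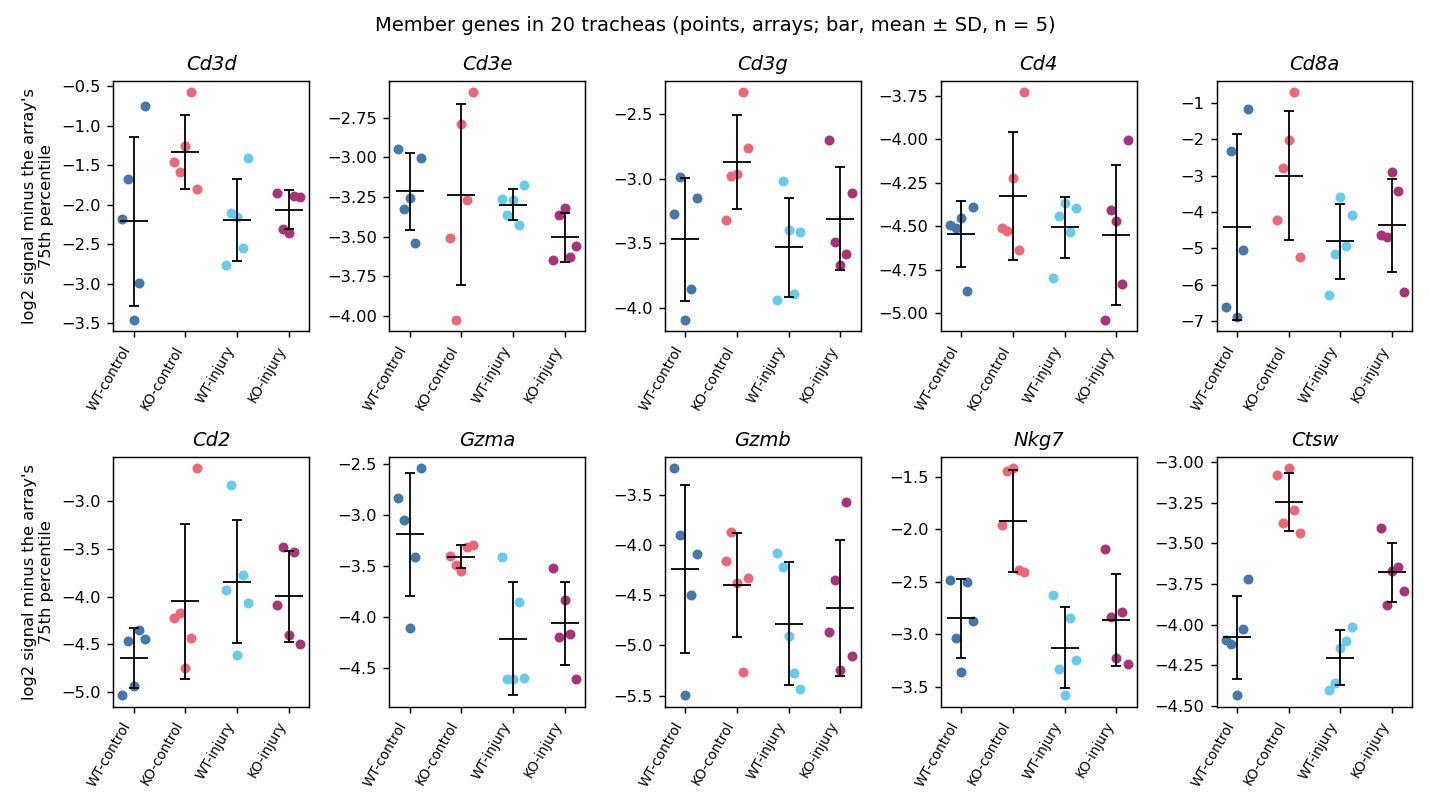
Log2 level of each member gene (brightest tested probe; signal minus the array's 75th percentile, y axes differ between panels) on each of the 20 arrays by group, with bars for mean ± SD, n = 5. Ctsw sits between -3.44 and -3.04 in KO-control and between -4.44 and -3.72 in WT-control, while Cd8a spans -6.87 to -1.18 within WT-control alone. Cd8a was well above background on 2 of the 5 WT-control arrays.

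After injury Ctsw was -4.40, -4.36, -4.15, -4.10 and -4.01 in wild-type and -3.41, -3.88, -3.67, -3.65 and -3.80 in Myd88KO trachea. All 5 injured knockout arrays were again above the 5 wild-type ones, and the within-slide differences were positive on 5 of 5 slides (0.22 to 1.00). The fitted difference of 0.52 ± 0.14 (SE), 1.44-fold, did not pass the adjusted threshold of 0.01 (limma adjusted p = 0.116). The difference between the uninjured and injured genotype effects was -0.31 ± 0.20 (SE; adjusted p = 0.592), with an interval from -0.73 to 0.12.

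Of the 26063 probes tested, 0.384% were called between the uninjured genotypes and 1 of the 11 member probes was. In 2.51% of all probes the 5 arrays of each genotype did not overlap, against 2 of the 11 member probes, Ctsw and the brighter of 2 Nkg7 probes. Of the 11 differences 8 were positive and their median was 0.60, beside 0.04 over all probes tested. The dimmer Nkg7 probe passed the filter mainly through the Myd88KO arrays, so the median describes the probes tested and supports nothing about a shared shift.

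Nkg7 was measured by 2 probes that followed each other across arrays (r = 0.83 over 20 arrays with group means removed). The brighter probe (A_52_P24447) was well above background on all arrays and read -2.48, -3.03, -3.36, -2.50 and -2.87 in WT-control. In KO-control it read -1.96, -1.45, -1.42, -2.39 and -2.41, so that every knockout array was above every wild-type array, though the closest of them nearly met. The difference was 0.92 ± 0.26 (SE), 1.89-fold, with an interval from 0.38 to 1.46, and it did not pass after adjustment (limma adjusted p = 0.197). It was positive on 5 of 5 slides, from 0.11 to 1.94. The dimmer probe differed by 1.28 ± 0.44 (SE; limma adjusted p = 0.435) and was well above background on 5 KO-control arrays but on 1 WT-control array, so that its wild-type level is mostly background. On the injured arrays the brighter probe read -2.62 to -3.58 in wild-type and -2.19 to -3.29 in Myd88KO, and these ranges overlapped.

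**Figure D2:**
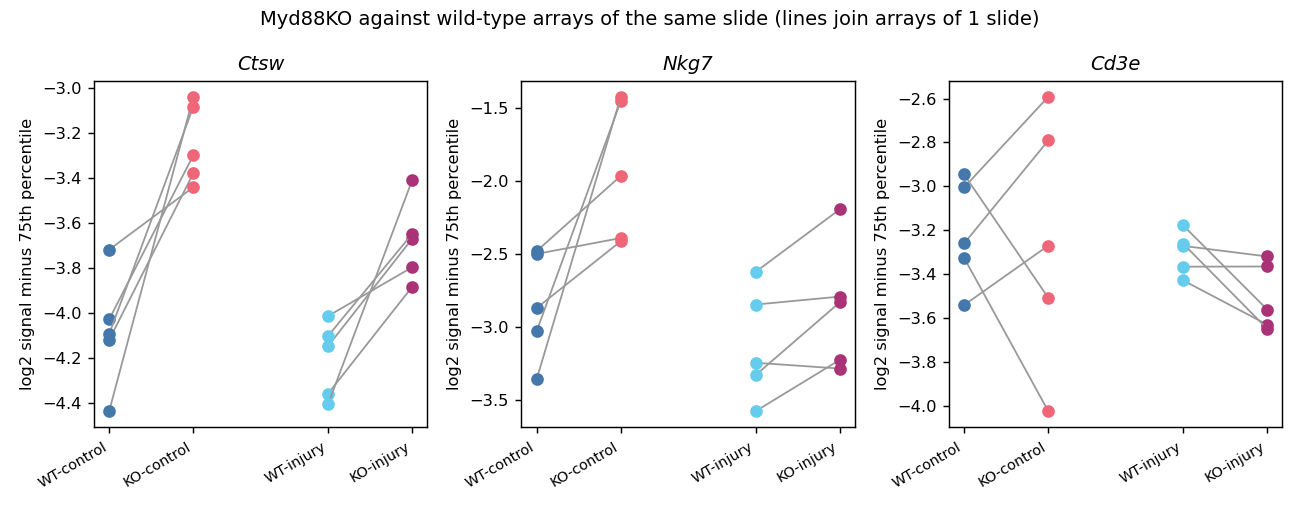
Log2 level (signal minus the array's 75th percentile) of Ctsw, Nkg7 (brighter probe) and Cd3e, with lines joining the wild-type and Myd88KO arrays of 1 slide. For Ctsw and Nkg7 all 5 uninjured lines rise from wild-type to Myd88KO, whereas for Cd3e they cross.

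None of the 3 CD3 genes was called between uninjured genotypes by limma (0 of 3), and differences between the genes were not tested. Cd3d and Cd3g, 2 of 3, had an unadjusted p under 0.05 by limma, where 1458 of all 26063 probes did. Cd3e, whose product pairs with each of the other CD3 chains, read -2.95, -3.33, -3.26, -3.54 and -3.005 in WT-control and -3.51, -4.02, -2.79, -3.27 and -2.59 in KO-control. Its groups overlapped widely and the difference was -0.02 ± 0.21 (SE), with an interval from -0.45 to 0.41. Cd3d, which pairs with Cd3e in the receptor, read -2.17, -1.68, -3.45, -2.99 and -0.74 in WT-control and -1.46, -1.58, -1.25, -0.58 and -1.80 in KO-control. The Cd3d mean was 0.88 ± 0.38 (SE) higher in Myd88KO (limma adjusted p = 0.801), but the wild-type arrays spanned most of the knockout range. Cd3g, the other partner of Cd3e, ranged from -4.09 to -2.98 in WT-control and from -3.32 to -2.33 in KO-control, a difference of 0.60 ± 0.25 (SE; limma adjusted p = 0.745). By scan day the Cd3d difference was 1.57 on the first day and -0.17 on the second, so its direction differed between them.

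Cd8a varied more between tracheas of 1 group than any other member probe tested. Its tested probe read -6.60, -2.33, -6.87, -5.05 and -1.18 in WT-control and -4.22, -2.79, -2.03, -0.72 and -5.24 in KO-control. The SD within these groups was 2.55 and 1.78, and the genotype difference of 1.41 ± 1.02 (SE) had an interval from -0.72 to 3.54. A second Cd8a probe, spotted 10 times on each array and not tested because it was well above background on 8 arrays, followed the same pattern (r = 0.92). In injured trachea the tested probe ranged from -6.28 to -3.59 in wild-type and from -6.20 to -2.90 in Myd88KO.

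The arrays high in Cd8a were those on which Rag1, a gene of developing T cells, was detected. Rag1, which cuts the T cell receptor genes in the thymus, was well above background on 7 arrays, namely 2 of WT-control, 3 of KO-control, 0 of WT-injury and 2 of KO-injury. Those 7 arrays were also the 7 with the highest Cd8a levels. Rag1 read -0.94 on KO-control-4, -1.69 on WT-control-5, -2.56 on WT-control-2 and -3.20 on KO-control-3, and it was at or below -5.54 on the 13 arrays where it was not detected. Dntt, the template-free polymerase of immature lymphocytes, reached 1.13 on KO-control-4 and 0.65 on WT-control-5, against -3.78 on KO-injury-5, its lowest. The defining thymocyte genes Rag2 and Ptcra were well above background on 0 and 1 arrays, and Dntt was on 19. Arpp21, the other listed thymocyte marker, was well above background on all 20 arrays and did not follow Rag1. It read -0.73 on KO-control-4 and -0.52 on WT-control-5, but also -0.57 on WT-injury-1 and -0.58 on KO-control-1, where Rag1 was not detected. On KO-injury-4, where Rag1 was detected, Arpp21 had its lowest value, -2.49. These genes were singled out after their values had been seen, and their part in the Cd8a, Cd3d and Cd3g results was not tested.

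Over the whole list of 5 thymocyte markers, all on the array and 2 of them tested, the summed level ranged from -1.13 to 1.39 in WT-control, from -0.32 to 1.74 in KO-control, from -1.19 to -0.17 in WT-injury and from -1.08 to -0.08 in KO-injury. Over the 10 uninjured arrays, with group means removed, that sum correlated with Cd8a (r = 0.91), Cd3d (r = 0.92) and Cd3g (r = 0.80) as well as with Gzma (r = 0.60) and Ctsw (r = 0.47), and the values for Cd3e and Nkg7 were 0.14 and -0.22. Without the 2 arrays highest in the markers the values were 0.85, 0.86 and 0.76 for Cd8a, Cd3d and Cd3g. Over the 10 injured arrays, where the sum ran from -1.19 to -0.08, they were 0.08, 0.01 and -0.49. Arpp21 made up much of the sum on some injured arrays, as on WT-injury-1 (-0.57, beside -2.40 for Dntt and -6.77 for Rag1). Dntt was among the 5 tested probes most like Cd8a over all 20 arrays with group means removed (r = 0.93), a value not given for the injured arrays alone. Among injured arrays Dntt was highest on KO-injury-3 and lowest on KO-injury-5. On KO-injury-3 Dntt read -0.88 and Cd8a -2.90, and on KO-injury-5 they read -3.78 and -6.20. That Cd8a reading lies below the lowest level well above background on KO-injury-5, -4.38. How the make-up of the sum shaped the injured values was not tested. All of these values come from the same arrays and are a description. KO-control-4 and WT-control-5 were the 2 arrays highest in thymocyte markers. On them the summed level of the B cell markers was -0.57 and -0.17 (uninjured arrays -1.58 to 0.03). That of the lymph node stroma markers was 2.61 and 3.63 (uninjured arrays 2.35 to 3.81). Of each of these lists only 3 genes passed the filter, so the sums include dim probes, and what they share with the thymocyte markers was not tested.

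**Figure D3:**
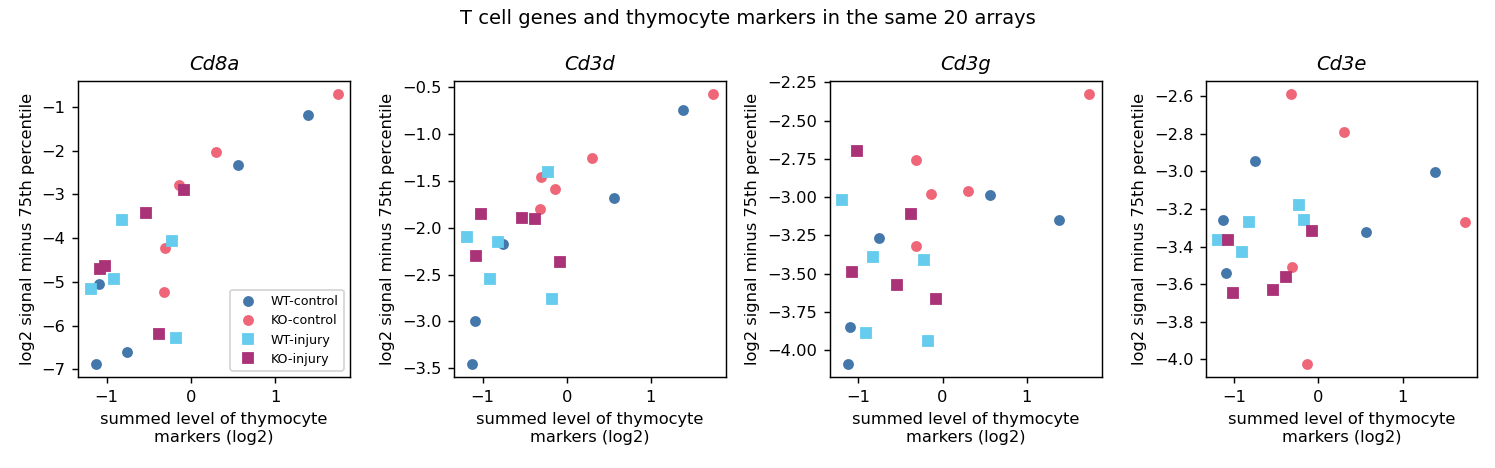
Log2 level of Cd8a, Cd3d, Cd3g and Cd3e (signal minus the array's 75th percentile) against the log2 summed level of 5 thymocyte markers on each of the 20 arrays; circles are uninjured and squares injured. The uninjured points of Cd8a and Cd3d lie along a rising line (r = 0.91 and 0.92 within groups), while those of Cd3e do not (r = 0.14).

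Leaving out arrays by these markers, an alternative chosen after seeing the data, bore on the genotype differences as follows. Without the 2 highest arrays Ctsw differed by 0.93 (limma adjusted p = 0.00542) and stayed the 1 member called. Without the 7 arrays on which Rag1 was detected, 13 arrays were left, of them 2 of KO-control and 3 of WT-control, and Ctsw differed by 0.92, the brighter Nkg7 probe by 0.59, Cd3d by 1.25 and Cd8a by 1.44. In that smaller fit 0 members were called by limma, and the Ctsw adjusted p was 0.408.

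Cd4 and Cd2 were dim. The tested Cd4 probe stayed between -5.04 and -3.73 on all 20 arrays, close to the lowest level detected, and differed by 0.22 ± 0.19 (SE) between uninjured genotypes (interval -0.19 to 0.62). Cd2 read -5.03, -4.46, -4.94, -4.35 and -4.44 in WT-control and -4.23, -4.18, -4.74, -4.44 and -2.65 in KO-control, where a single array was far above the other 4. The Cd2 difference was 0.60 ± 0.35 (SE), with an interval from -0.14 to 1.34.

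Neither granzyme gene was called between uninjured genotypes, and how they differed from Ctsw was not tested. Gzma, a tryptase of killer cell granules, read -2.83, -3.05, -4.10, -3.41 and -2.54 in WT-control and -3.40, -3.49, -3.55, -3.31 and -3.29 in KO-control. The knockout arrays lay within the wild-type range, and the difference was -0.22 ± 0.28 (SE; interval -0.80 to 0.37). Gzmb, the granzyme that activates caspases, ranged from -5.50 to -3.24 in WT-control and from -5.26 to -3.87 in KO-control, a difference of -0.15 ± 0.40 (SE; interval -0.98 to 0.67).

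Gzma was the member with the smallest p after injury of wild-type trachea. On WT-injury arrays 1 to 5 it read -3.41, -4.60, -4.60, -3.85 and -4.59, against -4.10 to -2.54 before injury, so that 3 injured arrays lay below every uninjured one. The difference was -1.02 ± 0.28 (SE), 2.03-fold lower, with an interval from -1.61 to -0.44, and it missed the threshold of 0.01 (limma adjusted p = 0.0207). It was negative on 5 of 5 slides. The call was made when arrays were weighted by quality (adjusted p = 0.00344), and in the fits without WT-injury replicate 1 (0.00982) or without WT-control replicate 3 (0.00481).

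The adhesion gene Cd2 was the member with the largest positive difference after wild-type injury (0.81 ± 0.35, SE; limma adjusted p = 0.146). WT-injury arrays read -3.93, -2.83, -4.61, -3.77 and -4.06. Cd3d, Cd3e, Cd3g and Cd4 differed by 0.02, -0.09, -0.06 and 0.04, with intervals no wider than -0.79 to 0.82. Ctsw differed by -0.13 ± 0.14 (SE) and the brighter Nkg7 probe by -0.28 ± 0.26 (SE). None of the 11 member probes was called by limma (0 of 11) in a comparison in which 5.26% of all probes were called. By limma 2 of 11 had an unadjusted p under 0.05, where 6886 of all 26063 probes did. In 0 of 11 the groups did not overlap, where 12.6% of all probes did not. The median of the 11 differences was -0.09, beside 0.00 over all probes tested.

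In Myd88KO trachea 10 of the 11 differences after injury were negative, with a median of -0.44 beside -0.07 over all probes tested. Both Nkg7 probes are among the 11, and the dimmer passed the filter mainly through the Myd88KO arrays. Cd8a, Cd3d and Cd3g followed the thymocyte markers over the uninjured arrays, and the part of those markers here was not tested. The median thus describes the probes tested and supports nothing about a shared shift. The brighter Nkg7 probe read -2.19, -2.83, -3.23, -2.79 and -3.29 in KO-injury, a difference of -0.94 ± 0.26 (SE; interval -1.48 to -0.40; limma adjusted p = 0.0519), and was lower on 5 of 5 slides. With array weights this difference was -1.04 and was called (adjusted p = 0.00685). Ctsw differed by -0.43 ± 0.14 (SE; limma adjusted p = 0.102), and was lower on 5 of 5 slides, and Gzma differed by -0.65 ± 0.28 (SE; limma adjusted p = 0.205). Cd3d read -1.86, -2.31, -2.36, -1.89 and -1.90 in KO-injury, all below the KO-control arrays, of which the lowest read -1.80, so that the closest nearly met. The Cd3d difference was -0.73 ± 0.38 (SE, limma adjusted p = 0.307). By limma 0 of 11 were called, with 0.376% of all probes called, and 3 of 11 had an unadjusted p under 0.05, where 5077 of all 26063 probes did. Of the 11 probes 1 did not overlap, with 3.45% of all probes.

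Between injured genotypes 0 of 11 member probes were called by limma, where 0.38% of all probes were. By limma 1 of 11, Ctsw, had an unadjusted p under 0.05, where 3264 of all 26063 probes did. One of 11, again Ctsw, did not overlap, where 1.96% of all probes did not. The median of the 11 was 0.16, beside -0.03 over all probes tested. The 3 CD3 genes differed by 0.13 (Cd3d), -0.20 (Cd3e) and 0.22 (Cd3g), each smaller than its standard error. Whether the injury response itself differed by genotype was tested as an interaction, for which 0% of all probes were called. Among the 11 members 0 were called by limma and 0 had an unadjusted p under 0.05, where 2703 of all 26063 probes did. The smallest adjusted p was 0.53, for the brighter Nkg7 probe (-0.66 ± 0.37, SE, with an interval from -1.43 to 0.10). These contrasts share arrays: KO-control enters both the genotype and the injury comparison, so that an array high in KO-control raises the one and lowers the other.

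**Figure D4:**
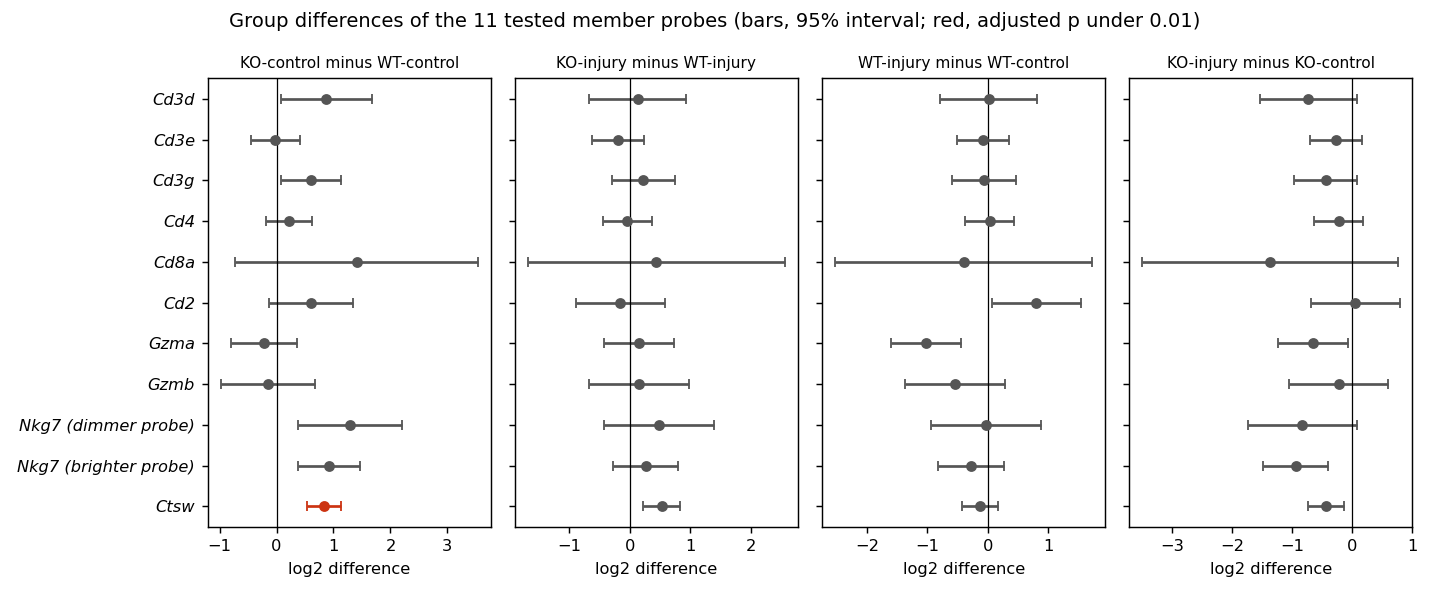
Log2 difference of the 11 tested member probes in 4 comparisons, with bars for 95% intervals from the limma fit; red marks an adjusted p under 0.01. Ctsw in uninjured trachea (0.83) is the red point, and the widest bars are those of Cd8a.

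Cd3e was set against each other member across arrays, since every T cell carries its product. With group means removed, Cd4 was the member closest to Cd3e (Pearson r = 0.58, permutation p = 0.0177, adjusted p = 0.16; Spearman rho = 0.65, permutation p = 0.00615, adjusted p = 0.0553; 9 members compared, 20 arrays, 2-sided). Cd3d (r = 0.14, adjusted permutation p = 0.883) and Cd3g (r = 0.14) hardly followed it, although Cd3d and Cd3g followed each other (r = 0.71). Over the 9 members r ran from -0.27 for Nkg7 to 0.58 for Cd4, and 0 passed after adjustment. Without the 2 arrays farthest from the Cd3e median the Cd4 value was 0.48. The second Cd3e probe, well above background on 0 arrays, followed the tested Cd3e probe as closely as Cd4 did (r = 0.58). The undetected Cd4 probe likewise followed the tested Cd4 probe (r = 0.43), and the probe most like the tested one was that of Srcin1 (r = 0.89). What background shared by dim probes added to the Cd4 value was not tested. The 5 tested probes most like Cd3e were those named 1500015L24Rik (r = 0.78), Hsd3b4, 1700020L24Rik, Foxk1 and ENSMUST00000012279, none of which is a T cell gene on the lists used here.

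The 5 probes most like Ctsw across the 20 arrays were those of Skap1 (r = 0.81), an adaptor of T cell receptor signalling, Syt13 (0.78), Txk (0.78), a kinase of T cells, Pias2 (0.77) and 1110035H17Rik (0.75). Within 2 Mb of the Ctsw probe in the array files, 234 probes of 168 other genes were tested and 0 of them were called between uninjured or between injured genotypes by limma. Other genes were looked at after their values were known. Cd8a was most like Cd8b1 (1 of its 2 probes, r = 0.97), Lck, the kinase that CD4 and CD8 bring to the receptor (0.94), and Dntt (0.93), and Cd3d was like Lat, the adaptor downstream of the receptor (0.89), and Lef1, a factor of early T cells (0.85). Gzma was like Klra21, of the NK receptor family (0.90), and Ccl5, a chemokine of killer cells (0.77), which was also near Nkg7 (0.78).

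Related genes were read from 14 lists, each gene by its brightest tested probe. In uninjured trachea 0 of their tested genes were called between genotypes by limma, where 0.384% of all probes were called. In the injury comparisons 5.26% of all probes were called in wild-type and 0.376% in Myd88KO trachea, the shares beside which the list counts stand. Among 20 genes of T cell receptor signalling 16 were tested. After wild-type injury 3 of these rose (Lcp2 by 2.30, Fyb by 1.90 and Thy1 by 1.08; all are also made by myeloid or stromal cells) and 1 fell, Cd247, which encodes the CD3 zeta chain. Cd247 fell by 1.18 in wild-type (limma adjusted p = 0.00546) and fell by 1.68 in Myd88KO trachea (adjusted p = 0.00426), from means of -2.27 and -1.95 to -3.46 and -3.62. The median over the 16 genes was 0.03 after wild-type injury. Between uninjured genotypes it was 0.36, beside 0.04 over all probes tested, and 14 of 16 were higher in Myd88KO. By limma 0 of the 16 were called there and 1 had an unadjusted p under 0.05, where 1458 of all 26063 probes did. Among them Lck followed Cd8a (r = 0.94) and Lat followed Cd3d (r = 0.89) across arrays, so the count describes the genes tested. A shared shift was not tested.

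Of 19 killing and NK receptor genes 5 were tested and the rest were too dim, among them Prf1, Ncr1, Eomes and Klrk1, of which Prf1 was well above background on 1 array and the other 3 on 0. Gzmm, a further granzyme of NK cells, fell by 1.36 after wild-type injury (limma adjusted p = 0.0016) from a mean of -1.90 to -3.26. In Myd88KO trachea Gzmm differed by -0.73 (limma adjusted p = 0.104). On KO-injury arrays 1 to 5 it read -3.04, -3.18, -3.18, -3.31 and -1.60, against -2.35 to -1.99 in KO-control, so that KO-injury-5 alone was not below the uninjured arrays. Klrd1, the CD94 receptor chain, differed by -0.80 between uninjured genotypes (adjusted p = 0.921), opposite in sign to Ctsw and Nkg7, and 0 of the 5 were called there. Of the T cell receptor chains 3 of the 4 genes on the array were tested and 0 were called in any comparison by limma, and the probes named Tcrb-V13 and Tcra differed by 0.79 and 0.77 between uninjured genotypes.

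Among genes that prepare or restrain granzymes, 2 of 6 tested were called higher after wild-type injury by limma, where 5.26% of all probes were called. After Myd88KO injury 0 were called, where 0.376% of all probes were, though 5 of the 6 differences were positive (median 0.60). The difference between the 2 injury responses was called for 0 of the 6 (limma, smallest adjusted p = 0.524). Ctsc, the protease that activates granzymes and neutrophil proteases alike, rose by 1.66 in wild-type trachea (limma adjusted p = 0.0034), and Serpina3g, a protease inhibitor, by 2.07 (adjusted p = 0.00717). Of the 12 other cathepsins, all tested, 0 were called between uninjured genotypes by limma, with a median difference of 0.09 beside 0.83 for Ctsw. After wild-type injury 5 of these 12 were called higher, where 5.26% of all probes were called in either direction. They were Ctss by 2.86, Ctsz by 1.18, Ctsb by 1.098, Ctsd by 0.84 and Ctsa by 0.82, lysosomal enzymes that macrophages make in quantity. Ctsw was not among them, with an interval for its difference from -0.43 to 0.18.

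Partners of CD2 and the SLAM family had 7 tested genes, of which Cd84 (2.87) and Ly9 (2.31) rose after wild-type injury (limma adjusted p = 0.00623 and 0.00559), and Cd48, the mouse ligand of CD2, differed by 1.49 (adjusted p = 0.0128). Among chemokines and receptors that draw T cells, Ccr7 (2.47) rose in that comparison (limma adjusted p = 0.00116). Cxcl9, a chemokine that draws T and NK cells, differed by 1.25 between uninjured genotypes (adjusted p = 0.336); it, Cd48 and Klrd1 were named after their values were seen. Myeloid markers moved beside these genes, with 4 of 8 called higher after wild-type injury (Cd68 by 3.27, Adgre1 by 2.03, Itgax by 1.58 and Csf1r by 1.55) and a list median of 2.30. Their part in the rise of Cd84, Ly9 and the cathepsins was not tested.

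Helper and regulatory T cell genes were mostly undetected, with 5 of 13 tested and 0 called in any comparison by limma. Foxp3, Ctla4, Cd40lg, Il17a and Il5 were well above background on 0 arrays, and Il2rb, the interleukin-2 receptor chain shared by NK and memory T cells, differed by 0.69 between uninjured genotypes (adjusted p = 0.341). Mast cell, B cell, lymph node stroma and thymocyte markers had 0 genes called in any comparison by limma. Among the 7 trachea markers Scgb1a1, the secretory product of club cells that polidocanol removes, fell by 7.91 in wild-type and fell by 6.24 in Myd88KO trachea, and the other 6 were not called.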

How the data were processed

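Total RNA of 20 whole tracheas was labelled with Cy3 and hybridised to 1 one-colour Agilent array each. The deposited scanner files hold the processed signal intensity of Agilent Feature Extraction, made by the authors and already background-subtracted, and a value table of the same arrays. Array annotation names were matched to RefSeq symbols (GRCm38.p6). The members and gene lists were chosen with earlier results of these data known.

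Outlier and control spots were left out, spots of a probe were averaged as log2 intensity, and each array's 75th percentile was subtracted. All 20 arrays were fitted with 4 group means in limma 3.58.1 (R 4.3.3), with Benjamini-Hochberg adjustment over 26063 probes within a contrast and a threshold of 0.01. The script was tested on simulated data. Correlations used 100000 permutations within groups. Named genes were all member probes, related genes called in any contrast or of lowest p in their list, and the 5 probes most like Ctsw and Cd3e. Arrays of 1 replicate number shared a slide per the file headers, which held all 4 groups (same-number deviations correlated with a median r of 0.24, other numbers with -0.08). Slides 1 to 3 and 4 to 5 were scanned on different days. Alternatives changed the scaling, background correction, filter, threshold, arrays and model. The number of arrays limits the precision. A related gene is not reported here.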

Additional observations from a re-analysis of the deposited data

Results flagged for a closer look

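In 44 groups of 5 arrays (11 member probes, 4 groups), 3 had 1 array far from the others, and chance flags about 1 group in 20. Cd2 on KO-control-5 read -2.65 against -4.18 for the nearest array of its group. Nkg7, by its dimmer probe, read -6.81 on WT-control-3 against -4.78 for the nearest. Cd4 on WT-control-4 read -4.87 against -4.51 for the nearest.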

How the results depend on the processing

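Of 1882 member differences recomputed under 35 alternatives (2 of them, those on thymocyte markers, chosen after seeing the data), 1861 kept their side of the threshold, 0 called differences turned sign, and 61 that were called in neither fit did. Between uninjured genotypes, where 1 member was called, 0 were called with no filter on dim probes (Ctsw adjusted p = 0.0102 by limma), with normexp, in the fit of the 2 groups alone (0.0315), under the methods' one-way test after adjustment (0.0575) and without the arrays on which Rag1 was detected, and 2 under that one-way test unadjusted. Leaving out single arrays gave 0 to 1 called. After wild-type injury, with 0 called, 1 was called with array weights and 1 at an adjusted p under 0.05 (Gzma both times), and 0 to 1 with single arrays left out. After Myd88KO injury, with 0 called, 1 was called with array weights and 2 by the unadjusted one-way test, which also called 1 between injured genotypes. Over all 26063 probes that unadjusted test called 743 between uninjured genotypes, 1275 after Myd88KO injury and 602 between injured genotypes. The replicate block (slide) gave 1 member called between uninjured genotypes (Ctsw adjusted p = 0.00873) and 0 in every other comparison. It changed no other call. No alternative changed the side of a Cd3e correlation. Why the calls changed was not tested. Fits with fewer arrays or groups have fewer degrees of freedom, and normexp adds an offset of 50 to every signal. How far either changed a call was not tested. Scaled to each array's median, Ctsw differed by 0.86. Over all probes, where 100, 1372, 98 and 99 were called (uninjured genotypes, wild-type injury, Myd88KO injury, injured genotypes), array weights gave 179, 2630, 2088 and 109, scan day as a term 123, 2106, 361 and 136, and leaving out the 2 arrays highest in thymocyte markers 66, 694, 8 and 81. Most member probes were near background, which limits what small differences can show.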
